A study of Drosophila melanogaster with 6 samples.

Results

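The genes described here encode the proteins of the cytoplasmic ribosome of Drosophila melanogaster, together with their duplicated copies. They were chosen by name, as the annotated genes whose symbol begins with RpL or RpS and a number, plus RpLP0, RpLP1 and RpLP2, sta and RpS2 (sop). This gave 93 of the 17895 genes in the deposited count table. Of these, 79 were taken as main copies, 47 of the large (60S) and 32 of the small (40S) subunit, and 14 as paralogs, written with a second letter, a number or the ending -like and each set against its main copy.

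The RNA came from whole larval intestines of 2 genotypes with 3 libraries each, and the comparison was made in the study to find genes whose expression depends on the ecdysone receptor EcR in enterocytes, the absorptive cells of the gut, when the animals lack their own ecdysone. Both genotypes carried LexO-spok RNAi under Tub-LexA, which removes an enzyme of ecdysone synthesis, together with Tub-GAL80ts and UAS-EcR RNAi. By the methods only the EcRi genotype also carried Myo1A-GAL4, a driver active in enterocytes and not in the other cells of the gut, so the control held the hairpin without a driver. The control titles name Myo1A as well, and which description applies was not settled. Egg laying lasted 8 h, and the animals then spent 6 days at 18 °C, where GAL80ts is active, and 4 days at 29 °C, where it is not. The labels number the libraries as biological replicates and do not say from which cultures or animals they came, so p-values measure the spread between these libraries.

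Each cytoplasmic ribosome holds 1 copy of most of these proteins, and their genes are among the most highly transcribed in growing cells. In flies most of them are haploinsufficient: loss of 1 copy gives the slow development and thin bristles called Minute. Their transcripts start in a pyrimidine-rich initiator, and their transcription and translation are tied to growth signalling through Myc and the kinase TOR. Several fly ribosomal protein genes have a second copy used mainly in the germ line, and some of the genes named -like are relatives of yeast factors that act in ribosome assembly and do not belong to the finished ribosome.

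The libraries held between 200890663 and 246255664 counts, at which 3 counts are worth 0.0122 to 0.0149 CPM, the unit in which counts are scaled to the size of the library. Such limits cover only the error of counting. Scaling factors by the trimmed mean of M-values (TMM) lay between 0.713 and 0.845 in the control and between 1.21 and 1.30 in EcRi. The 10 most abundant genes of each library, none of them ribosomal, took 17.9 to 22.1% of counts in the control and 9.65 to 10.7% in EcRi. CPM values of single genes are TMM-scaled unless library totals are named. EcR itself had 45.6, 28.3 and 26.6 in the control and 28.8, 28.7 and 32.0 CPM in EcRi, a log2 fold change of -0.17 (SE 0.21, adjusted p = 0.517 from edgeR). Reads of the EcR RNAi hairpin were not separated from those of EcR, and cells without the driver were counted too. This value therefore cannot show whether EcR fell in enterocytes. EcRi is thus used as the name on the labels, and directions refer to libraries so labelled. In the whole intestine the 6 visceral muscle markers ranged in sum from 2402 to 2903 CPM over the control libraries and from 724 to 906 CPM over the EcRi libraries, the 5 tracheal markers from 81.1 to 121 CPM and from 637 to 712 CPM, and the 6 enterocyte markers from 8664 to 13737 CPM and from 2642 to 3859 CPM. On the TMM scale, where 29.3% of all tested rows fell and 30.1% rose, all 6 muscle markers and 4 enterocyte markers fell, and 4 tracheal markers and 1 enterocyte marker rose. Of 6 tested progenitor markers 2 rose and 2 fell, 1 of 6 enteroendocrine markers fell and 1 of 6 fat body markers rose. With library totals, where 12.7% fell and 57.3% rose, 5 muscle markers fell and 5 tracheal markers rose, 2 enterocyte markers rose and 2 fell, 4 progenitor markers rose and 1 fell, and 3 enteroendocrine, 2 haemocyte and 1 fat body markers rose. The haemocyte markers ranged in sum from 21.4 to 38.7 CPM and from 20.8 to 44.1 CPM. Their part in the results on ribosomal protein genes was not tested, and in bulk RNA fewer cells of a type and less RNA per cell cannot be told apart.

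RpL32, known as rp49, was the reference gene of the study's qRT-PCR, and its primers are shown because every such value is relative to this member of the family. Both lie in a gene on the minus strand of chromosome 3R from 30045229 to 30046161 (FBgn0002626, BDGP6 annotation). They are written 5′ to 3′.
rp49 forward: gctaagctgtcgcacaaa
rp49 reverse: tccggtgggcagcatgtg
RpL32 had 632, 765 and 707 in the control and 473, 492 and 378 CPM in EcRi, and the groups did not overlap on this scale. Its log2 fold change was -0.65 (SE 0.14, adjusted p = 0.005 from edgeR), close to the middle of its family. As a share of all counts of its library, RpL32 took 0.053, 0.0646 and 0.0504% in the control and 0.0573, 0.0618 and 0.0491% in EcRi, where the groups did overlap. With library totals in place of TMM its log2 fold change was 0.00, so the direction of this reference gene depended on the scaling.

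Levels were compared between genes as TMM-scaled CPM per kilobase of exon (RPKM). In the control the 79 main copies lay between 167 RPKM for RpL22, a protein at the outer face of the 60S subunit, and 2130 RPKM for RpL41, the smallest protein of the ribosome, a 12.8-fold range with a median of 945 RPKM. In EcRi they lay between 124 RPKM for RpL22 and 1147 RPKM for RpL27A, a 9.26-fold range with a median of 628 RPKM. After RpL41 the highest means over all libraries were those of RpL23 (1965 ± 124 RPKM in the control and 1136 ± 131 RPKM in EcRi) and RpL27A (1885 ± 114 and 1147 ± 136 RPKM, SD, n = 3 each). In EcRi the means of these 3 genes differed by less than their SDs, and so did RpL23 and RpL27A in the control. The lowest main copies after RpL22 were RpS9, which lies near the mRNA entry of the 40S subunit, and RpL38, with 250 ± 20.1 and 316 ± 19.5 RPKM in the control. RpL22 shares 377 of its 1100 exonic bases with lncRNA:CR42491 on the same strand. RpS9 shares 512 of its 1018 with asRNA:CR45874 on the other strand. How reads in such bases were counted is not given, and their part in these low levels was not tested. The order of the 79 genes was largely shared between genotypes (Spearman 0.961 across genes, which come from the same libraries).

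**Figure D1:**
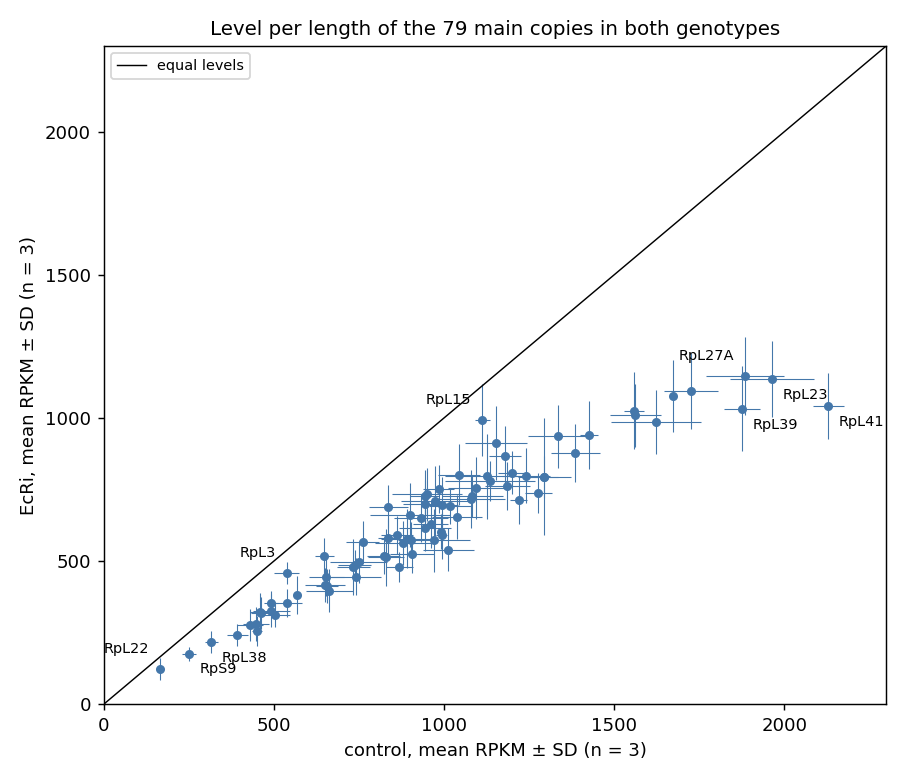
Mean RPKM of the 79 main copies in the control (horizontal axis) and in EcRi (vertical axis), both linear, with bars for the SD over 3 libraries and a line at equal levels. All points lie under the line on the TMM scale, from RpL22 at 167 and 124 RPKM to RpL41 at 2130 and 1042 RPKM. With library totals the median log2 difference was 0.04, so the side of the line depends on the scaling.

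On the TMM scale the family was lower in EcRi. Of the 87 members with enough counts to be tested, 74 fell, 1 rose and 12 did not pass the test, while among all 12193 tested rows 29.3% fell and 30.1% rose. The 3 control libraries lay above the 3 EcRi libraries for 80 members, where this held for 33.4% of all rows, and below them for RpS19b, where it held for 34.9%. All 79 main copies had a negative log2 fold change, with a median of -0.61 and quartiles of -0.69 and -0.52, and 71 of them passed the test. The median over all tested rows was 0.03.

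This direction rested on the scaling. With library totals the median of all tested rows moved to 0.68, and that of the main copies was 0.04. On that scale 2 members were lower, RpL41 and RpS15Ab, where 12.7% of all rows were, and 5 were higher, RpS4, RpL3, RpL15, RpL24-like and RpS19b, where 57.3% of all rows were. With the main copies themselves as the scaling reference, 2 were lower and 5 higher, where 12.5% and 53.3% of all rows were. Another scaling shifts all rows by about the same amount, so the distance between the main copies and all rows is nearly fixed by construction and is no check of the direction. Their median log2 fold change lay below that of all rows by 0.64 with TMM, by 0.64 with library totals and by 0.65 with the ribosomal reference, or 1.56-fold, 1.56-fold and 1.57-fold. Without TMM the libraries did not overlap for 2 members that were lower and 8 that were higher in EcRi, where this held for 14.3% and 61.9% of all rows.

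The 60S and 40S genes had similar medians. Of 47 main copies of the 60S subunit, 41 fell on the TMM scale and the median log2 fold change was -0.59, with a range from -1.03 for RpL41 to -0.17 for RpL15. Of the 32 main copies of the 40S subunit, 30 fell, with a median of -0.63 and a range from -0.86 for RpS28b to -0.28 for RpS4. None of the main copies rose. On library totals the medians were 0.06 and 0.02.

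**Figure D2:**
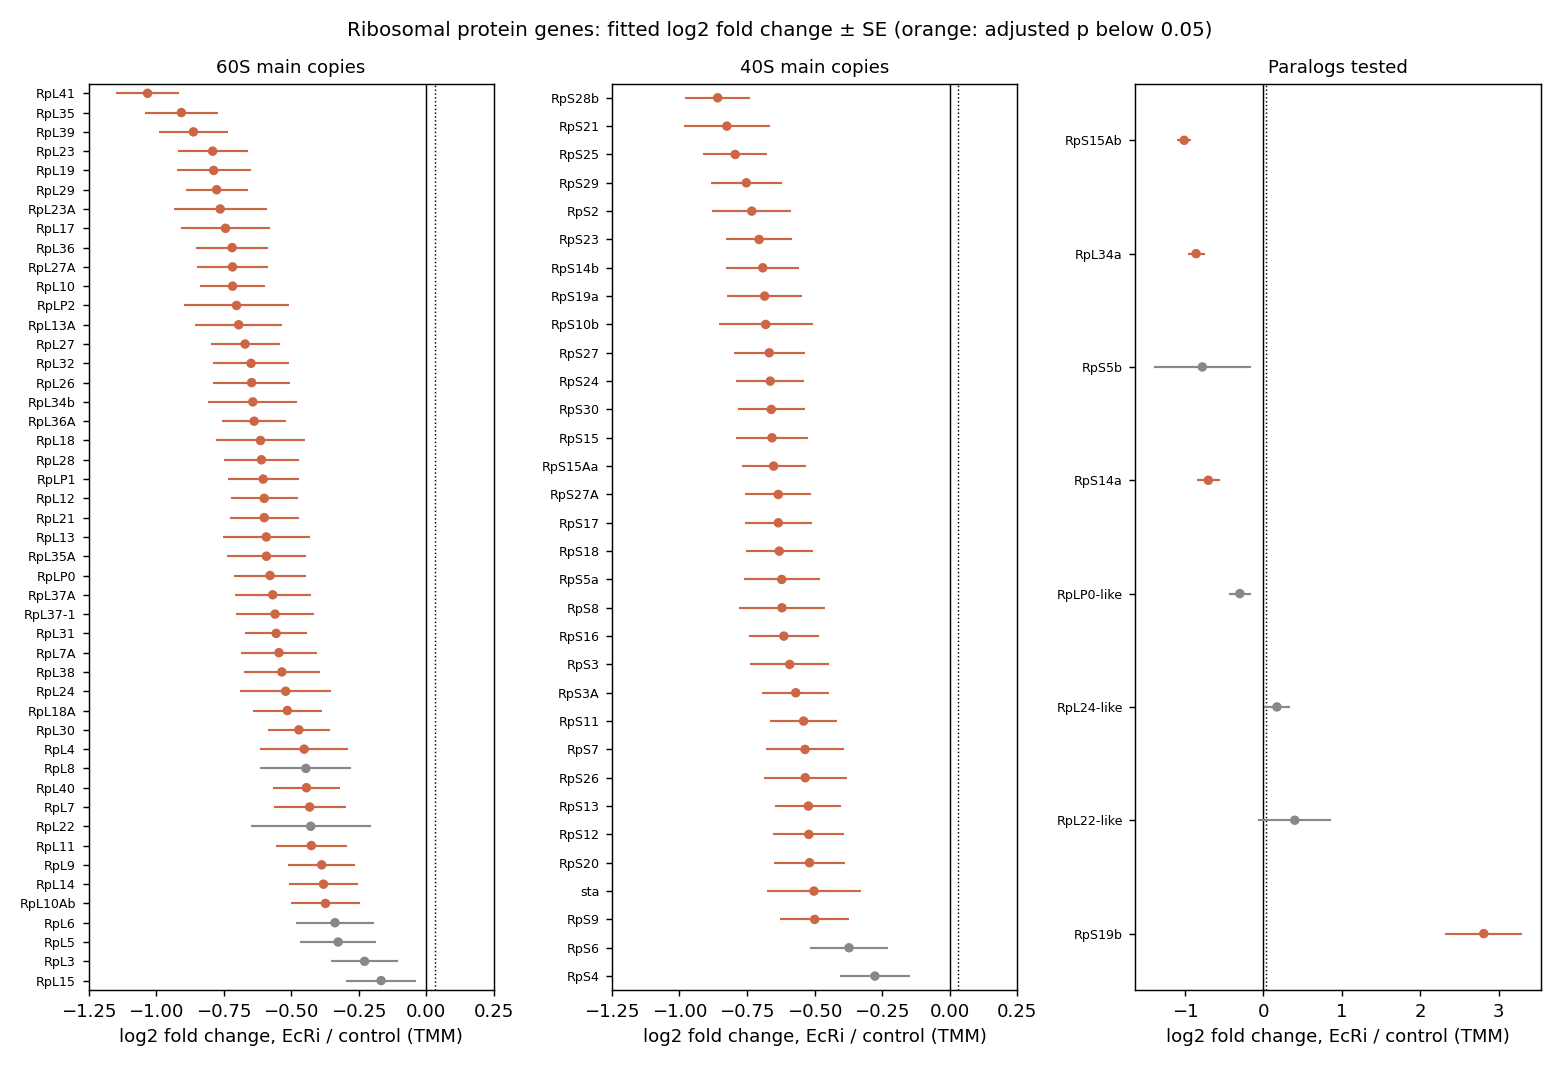
Fitted log2 fold change of EcRi against control on the TMM scale (horizontal axis, points, with bars for the SE) of the 87 tested members, in panels for 60S main copies, 40S main copies and paralogs. Orange marks an adjusted p below 0.05, the solid line 0 and the dotted line the median of all tested rows, 0.03. Main copies reach from -1.03 for RpL41 to -0.17 for RpL15 and paralogs from -1.01 for RpS15Ab to 2.81 for RpS19b, and with library totals the main copies are centred at 0.04.

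Measured as a share of all counts, the family as a whole did not differ beyond the spread between libraries. It took 5.53, 6.15 and 5.19% of the counts in the control and 5.99, 6.58 and 5.24% in EcRi, groups that overlapped. The difference was 0.314 percentage points (two-sided exact permutation test, p = 0.6, where 3 libraries against 3 cannot give less than 0.1). With the 10 most abundant genes of each library, chosen library by library, left out of its total, the shares were 6.80, 7.49 and 6.66% in the control and 6.71, 7.36 and 5.80% in EcRi. This was a difference of -0.359 points (p = 0.5, same exact test). The summed TMM-scaled level was 65971, 72779 and 72732 in the control and 49425, 52308 and 40399 CPM in EcRi, without overlap (exact permutation p = 0.1). EcRi replicate 3 had the lowest sum on the TMM scale.

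The balance of the subunits can be read within each library, where no scaling enters. Counts of all 60S members exceeded those of 40S members by a ratio of 1.42, 1.42 and 1.43 in the control and of 1.49, 1.47 and 1.47 in EcRi. Every EcRi library lay above every control library, and the mean rose from 1.424 ± 0.00772 to 1.476 ± 0.0104 (SD, n = 3 each, two-sided exact permutation p = 0.1, the smallest these numbers allow). This is a ratio of reads, in which longer transcripts count more, and was chosen as a measure after the values were seen.

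**Figure D3:**
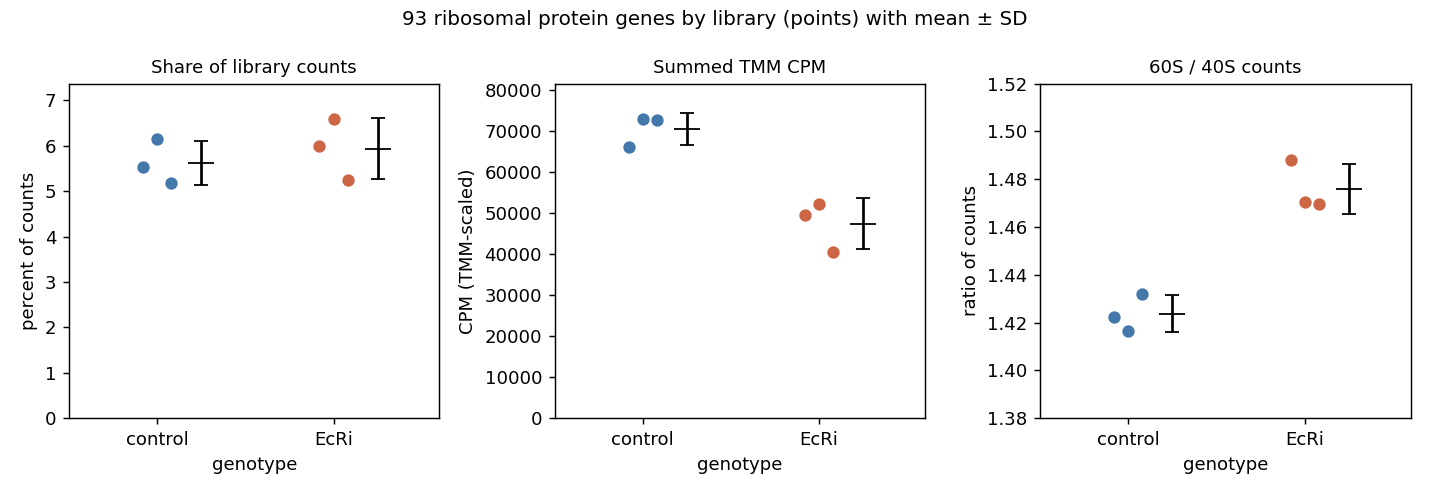
The 93 genes in each library (points, 3 per genotype) with the mean and SD beside them. From left to right the vertical axes give their share of library counts, their summed TMM-scaled CPM and the ratio of 60S to 40S counts, the last on an axis that does not start at 0. The shares overlap (5.19 to 6.15% and 5.24 to 6.58%), the TMM sums do not, and the ratio is between 1.42 and 1.43 in the control and between 1.47 and 1.49 in EcRi.

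The lowest log2 fold changes among the main copies on the TMM scale were those of RpL41, RpL35 and RpL39 of the 60S subunit and RpS28b of the 40S subunit, the last 2 both at -0.86. RpL41 (FBgn0066084) had 697, 668 and 679 in the control and 346, 363 and 292 CPM in EcRi, less than any control library, and its log2 fold change was -1.03 (SE 0.12, adjusted p = 0.000189 from edgeR). It was also lower with library totals, by a log2 fold change of -0.38, and its share of counts fell without overlap, from 0.0585, 0.0565 and 0.0484% to 0.0419, 0.0457 and 0.0379%. It was the only main copy to fall on both scales. RpL35, at the mouth of the exit tunnel for the new protein, had 697, 802 and 725 in the control and 410, 441 and 336 CPM in EcRi (log2 fold change -0.91, SE 0.14). RpL39, a small protein within the same tunnel, had 558, 531 and 531 in the control and 305, 336 and 251 CPM in EcRi (-0.86, SE 0.13).

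The called main copies nearest to 0 were RpL10Ab, RpL14, RpL9 and RpL11, with log2 fold changes of -0.37, -0.38, -0.39 and -0.42 (SE 0.13, 0.13, 0.12 and 0.13). RpL11, which binds the 5S rRNA together with RpL5, had 720, 791 and 811 in the control and 586, 645 and 498 CPM in EcRi. The calls of all 4 were lost when control replicate 2, control replicate 3, EcRi replicate 1 or EcRi replicate 3 was left out, with log2 fold changes between -0.51 and -0.28 over the libraries left out. The 8 main copies that did not pass were RpL8, RpL22, RpS6, RpL6, RpL5, RpS4, RpL3 and RpL15, named because they complete the family, of which RpL22 passed without EcRi replicate 1 (-0.63). With DESeq2 and with limma-voom fewer of these 8 stayed uncalled, and RpS6 was not the only gene gained. RpL15, in the core of the 60S subunit, had 1158, 1111 and 1131 in the control and 1023, 1131 and 875 CPM in EcRi, which overlapped (-0.17, SE 0.13). RpL3, which reaches toward the peptidyl transferase centre, had 1107, 1232 and 1257 in the control and 1066, 1077 and 928 CPM in EcRi (-0.23, SE 0.12). Both were higher in EcRi with library totals, with log2 fold changes of 0.48 and 0.43.

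Several members have roles outside the ribosome's core or are read out in other assays. RpS6, the protein phosphorylated by S6 kinase, had 998, 1231 and 1177 in the control and 905, 971 and 755 CPM in EcRi. It did not pass (log2 fold change -0.37, SE 0.15, adjusted p = 0.057 from edgeR), and passed without control replicate 1 (-0.48) or EcRi replicate 2 (-0.45), with DESeq2 (-0.38) and with limma-voom (-0.38). The genes that encode a ubiquitin or ubiquitin-like protein fused to a ribosomal protein all fell on the TMM scale, with log2 fold changes of -0.44 for RpL40, -0.63 for RpS27A and -0.66 for RpS30. The stalk proteins, which contact the elongation factors, fell on that scale too, with -0.58 for RpLP0, -0.60 for RpLP1 and -0.70 for RpLP2. sta, the receptor-like protein RpSA of the 40S subunit, had 1315, 1600 and 1609 in the control and 1194, 1166 and 834 CPM in EcRi (-0.50, SE 0.17), a call lost without control replicate 2, control replicate 3 or EcRi replicate 3. RpS2, whose gene is known as string of pearls for its oogenesis phenotype, had 798, 915 and 972 in the control and 593, 573 and 450 CPM in EcRi (-0.73, SE 0.15). With library totals none of the 9 genes named in these sentences passed the test.

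Paralogs were compared with their main copy within each library, so that the scaling cancels. Of 14 pairs 8 had enough counts in the paralog, and 4 of the 8 ratios did not overlap between genotypes, 3 of them higher in EcRi and 1 lower. For levels of single rows on the TMM scale, 33.4% of all tested rows were lower without overlap and 34.9% higher. On library totals, where the main copies had a median of 0.04, 14.3% were lower without overlap and 61.9% higher. The second scale is nearer to a ratio against a main copy. No such share was computed for the ratios themselves. In all 4 paralog ratios without overlap the exact permutation test gave p = 0.1, the smallest possible, or 0.2 after Benjamini-Hochberg adjustment over the 8 pairs, so none could pass. Left out 1 library at a time, between 4 and 6 of the 8 ratios did not overlap. This count could not fall below 4, since removing a library cannot create an overlap, so it is no check of these ratios.

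RpL24-like, on chromosome 3R from 11430740 to 11431582, is the relative of yeast Rlp24, a factor that holds the place of RpL24 during 60S assembly. It had 16984, 18523 and 16765 counts in the control and 28260, 41084 and 24842 counts in EcRi, higher in every EcRi library. These were 15.8, 17.9 and 17.4% of the counts of RpL24 in the control and 25.7, 28.9 and 28.3% in EcRi. The ratio rose 1.62-fold, a log2 change of 0.70 that lay between 0.65 and 0.75 when any library was left out. On the TMM scale RpL24 was at -0.52 and the median of all tested rows at 0.03. A row at that median would thus also have risen against RpL24. By itself RpL24-like had a log2 fold change of 0.17 on the TMM scale (SE 0.17, adjusted p = 0.409 from edgeR) and 0.83 with library totals, where it passed. RpL24 fell on the TMM scale (-0.52, SE 0.17), a call lost without control replicate 2 (-0.53) or control replicate 3 (-0.48). In the annotation 273 exonic bases of RpL24 are shared with CG7099 on the other strand, which had at most 15.9 CPM in any library.

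RpLP0-like is the relative of yeast Mrt4, which occupies the stalk site of RpLP0 on the unfinished 60S subunit. Its counts were 1.30, 1.47 and 1.23% of those of RpLP0 in the control and 1.58, 1.71 and 1.53% in EcRi, without overlap. The ratio rose 1.21-fold, a log2 change of 0.27 (0.22 to 0.35 when a library was left out). On the TMM scale RpLP0 was at -0.58 and the median of all tested rows at 0.03. A row at that median would have risen more than this against RpLP0. Its own log2 fold change on the TMM scale was -0.30 (SE 0.14, adjusted p = 0.092 from edgeR), and it fell past the threshold without control replicate 1 (-0.40) or EcRi replicate 2 (-0.40). Scaled to the main copies it was higher and passed (0.30), so its direction depended on the scaling. RpL7-like, the relative of yeast Rlp7, was listed at 0 in all libraries. Of its 1793 exonic bases 1771 are shared on the same strand with CG34164, which was also listed at 0 in all libraries. How reads in more than 1 gene were counted is not given in the sources used here, and its part in this 0 was not tested.

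RpS19b had the largest fold change in the family and the only rise on the TMM scale. It lies on chromosome 3R from 23932729 to 23933530, and in flies it is expressed mainly in the germ line. Counts were 10, 4 and 18 in the control and 110, 143 and 111 in EcRi. Its log2 fold change was 2.81 (SE 0.49, adjusted p = 0.002 from edgeR), and between 2.39 and 3.54 when a library was left out. The gene passed the filter on low counts through the EcRi libraries, where it is high, and was not tested when at least 10 counts were asked of every library. It remained a trace of its main copy RpS19a, at 0.00873, 0.00333 and 0.0181% of its counts in the control and 0.108, 0.107 and 0.117% in EcRi. The ratio of RpS19b to RpS19a rose 12.9-fold (log2 3.69, 3.09 to 4.25 when a library was left out). Summed, the 7 matched germline and gonad genes reached 5.27 to 7.09 CPM in control libraries and 7.53 to 10.6 CPM in EcRi libraries. Within this sum AGO3 and ovo went opposite ways, with log2 fold changes of -2.13 and 2.38 on the TMM scale. Among the 6 tested, bam, piwi and ovo rose and AGO3 fell on the TMM scale, where 30.1% and 29.3% of all rows did. bam had 0, 0.0343 and 0 in the control and 0.0822, 0.0646 and 0.0557 CPM in EcRi. Like RpS19b it passed the filter on low counts through the EcRi libraries, where it is high. vas, which marks germ cells, was at most 0.0605 in the control and 0.15 CPM in EcRi, and the part of such cells in the RpS19b counts was not tested.

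The other paralogs linked to the germ line did not pass. RpS5b, the copy used in the female germ line, had 53, 37 and 27 counts in the control and 15, 17 and 75 in EcRi. EcRi replicate 3 stood above both other EcRi libraries, and without it the log2 fold change moved from -0.78 to -1.89 and passed. RpL22-like, abundant in the testis, had 12, 8 and 4 counts in the control and 10, 19 and 21 in EcRi (log2 fold change 0.40, SE 0.46). RpL10Aa was listed at 0 in all libraries, and RpL37-2, RpS10a, RpS28a and RpS28-like had at most 2, 8, 4 and 6 counts in any library, so no ratio was compared for these. Of the 14 paralogs 5 have a single exon block, RpL10Aa, RpL37-2, RpS10a, RpS15Ab and RpS28a, against 1 of the main copies, RpLP2.

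RpS15Ab and RpL34a, 2 more abundant paralogs, fell on the TMM scale. RpS15Ab had 20.9, 22.6 and 22.3 in the control and 11.6, 10.9 and 10.2 CPM in EcRi (log2 fold change -1.01, SE 0.09, adjusted p = 4.9e-05 from edgeR), and it fell with library totals as well (-0.36). Its counts were 2.50, 2.57 and 2.65% of those of RpS15Aa in the control and 2.13, 1.82 and 2.11% in EcRi, the 1 ratio that was lower without overlap (log2 -0.36). RpL34a had 100, 116 and 109 in the control and 62.1, 64.9 and 52.5 CPM in EcRi (-0.86, SE 0.11). It stood at 28.1, 27.6 and 26.1% of RpL34b in the control and 21.6, 23.0 and 26.8% in EcRi, ratios that overlapped.

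RpS14a and RpS14b are neighbours on the X chromosome, from 7933742 to 7934677 and from 7934898 to 7935792, and are close copies of each other, so the split of reads between them is uncertain. RpS14a was listed as the paralog but had the higher counts, 200, 199 and 192% of those of RpS14b in the control and 198, 198 and 188% in EcRi. The log2 change of the ratio was -0.02, with an SD of 0.04. Both fell on the TMM scale (-0.70 and -0.69), and neither passed with library totals (-0.05 and -0.04).

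**Figure D4:**
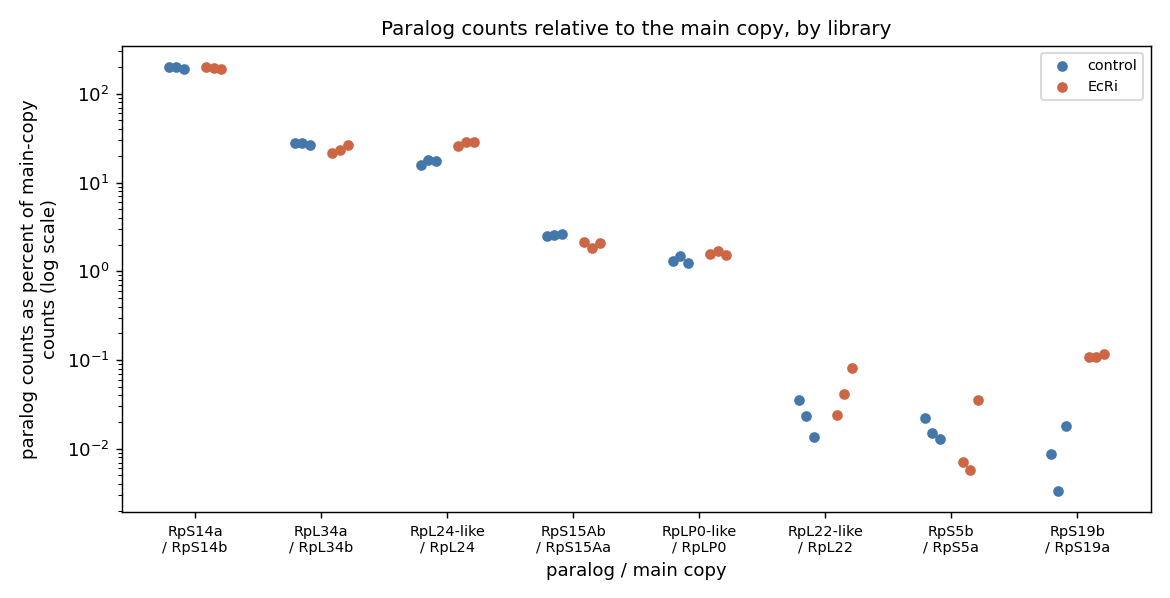
Counts of 8 paralogs as a percentage of the counts of their main copy in the same library (vertical axis, log scale), 3 points per genotype, blue for control and orange for EcRi. RpL24-like moves from 15.8 to 17.9% up to 25.7 to 28.9% of RpL24, and RpS19b from at most 0.0181% to at least 0.107% of RpS19a, while RpS14a stays between 188 and 200% of RpS14b.

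Main copies with longer coding sequences had the higher (less negative) log2 fold changes on the TMM scale. The 26 shortest, with 75 to 405 coding bases, had a median log2 fold change of -0.66, the 26 of 417 to 564 bases one of -0.62, and the 27 of 570 to 1248 bases one of -0.50. With library totals the medians were -0.01, 0.03 and 0.15, in the same order but with the longest genes farthest from 0. Every gene of the 2 shorter groups fell on the TMM scale, against 19 of the 27 longest. Across the 79 genes, which come from the same libraries and are not independent replicates, the Spearman correlation of log2 fold change with coding length was 0.474 and Pearson's r with log2 length 0.59. It was 0.461 within the 60S and 0.497 within the 40S genes, 0.308 with exon length, and between 0.391 and 0.518 when a library was left out. Over all 10511 tested protein-coding genes it was 0.13. Relations of similar size were present between some libraries of 1 genotype: the log2 difference of control replicate 2 from control replicate 1 correlated with coding length at 0.43, that of control replicate 3 from control replicate 1 at 0.546, and that of EcRi replicate 2 from EcRi replicate 1 at -0.378. The other 3 pairs of libraries within a genotype gave 0.142, -0.127 and 0.0087. Library differences of this kind therefore move with coding length inside a genotype, and their part in the relation between genotypes was not tested.

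**Figure D5:**
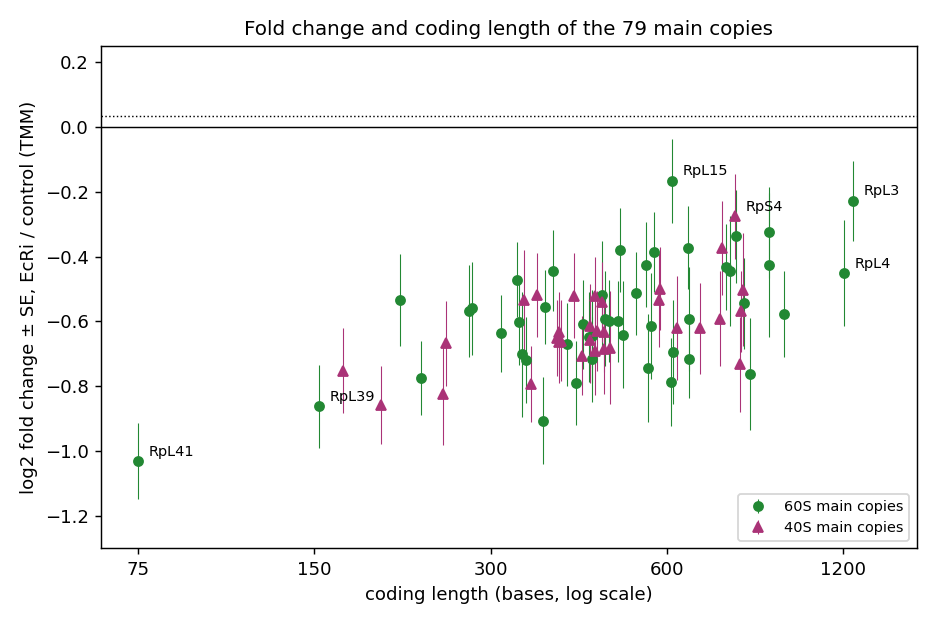
Coding length in bases (horizontal axis, log scale) and fitted log2 fold change with SE on the TMM scale (vertical axis) of the 79 main copies, circles for 60S and triangles for 40S. The solid line is 0 and the dotted line the median of all rows, 0.03. RpL41, with 75 coding bases, is lowest at -1.03, and RpL3, with 1248, lies at -0.23.

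Many ribosomal protein genes of flies carry small nucleolar RNAs (snoRNAs) in their introns, which guide the modification of ribosomal RNA. Among the main copies 28 host at least 1 such RNA, up to 14 in RpS5a. Their median log2 fold change was -0.53 on the TMM scale and 23 fell, while the 51 without had a median of -0.64 and 48 fell. Of all tested rows 29.3% fell on that scale. On library totals the medians were 0.12 and 0.01. All main copies that did not pass, with or without a snoRNA, were among the 27 with the longest coding sequences. Length and the hosting of a snoRNA were not separated here. By chromosome the medians on the TMM scale lay between -0.67 for the 14 main copies on the X and -0.55 for the 14 on 3L, with -0.57 for the 1 gene on chromosome 4, RpS3A.

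Other genes of protein synthesis were followed as lists. The elongation factors, which carry the ribosome along the mRNA, all fell on the TMM scale, 7 of 7, where 29.3% of all rows fell. Their median was -0.98. The largest falls were those of eEF1alpha2, a low-level copy, at -1.82 and of eEF1delta at -1.43, where eEF1delta had 142, 146 and 159 in the control and 56.8, 55.7 and 53.4 CPM in EcRi. The 2 most abundant, eEF1alpha1 and eEF2, were both at -0.57 and eEF5 was at -0.52, nearer to 0 than the main-copy median of -0.61. With library totals 3 of the 7 fell, where 12.7% of all rows did, and the median was -0.33. Of 27 initiation factors 9 fell on the TMM scale and the other 18 did not pass, where 29.3% of all rows fell, with a median of -0.21, led by eIF2beta at -0.88 and eIF6, which keeps the subunits apart, at -0.84. With library totals 18 of the 27 rose, where 57.3% of all rows did. Of 31 tested ribosome assembly factors 4 fell on the TMM scale, where 29.3% of all rows did. Their median was -0.24, led by Mybbp1A at -0.97 and NHP2, a protein of the snoRNA particles, at -0.57. Of 9 genes of RNA polymerase I, which makes ribosomal RNA, 3 fell, beside the same 29.3% of all rows. Their median was -0.24, led by its largest subunit Polr1A at -0.64. With library totals 13 assembly factors and 3 genes of RNA polymerase I rose, where 57.3% of all rows did.

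Of 9 tested regulators of growth and translation, Thor, Dref, Myc and S6k rose on the TMM scale and Xrp1 fell, where 30.1% and 29.3% of all rows did. Thor, the 4E-BP that blocks cap-dependent translation, had 143, 176 and 84.2 in the control and 1459, 1790 and 1424 CPM in EcRi, without overlap (log2 fold change 3.54, SE 0.29). Dref, which binds the DRE element of growth genes, had 23.6 to 24.4 CPM over the control libraries and 33.1 to 39.3 CPM over the EcRi libraries (0.58, SE 0.09). Xrp1, a transcription factor that rises in Minute mutants, had 1349, 1304 and 1279 in the control and 915, 787 and 887 CPM in EcRi (-0.60, SE 0.12). With library totals the log2 fold change of Xrp1 was 0.05, and 7 of the 9 genes rose, where 57.3% of all rows did.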

How the data were processed

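Intestinal RNA of 3 control and 3 EcRi libraries was analysed. The authors trimmed reads with Trim Galore!, aligned them with HISAT2, counted them with featureCounts on Galaxy and deposited raw counts per gene without normalization. The submitters' processing notes name dm6. Tool versions, strand and the treatment of multi-mapped reads are not given in the sources used here. The labels name a Qiagen RNeasy kit and a SMARTER library kit, and the methods TRIZOL. Of the members, 25 share exonic bases with a gene on the other strand and 10 with one on the same strand.

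Counts were tested in R 4.3.3 with edgeR 4.0.16 (TMM, filterByExpr, robust quasi-likelihood test, Benjamini-Hochberg over 12193 rows, threshold 0.05). The code was also run on simulated counts in which few genes changed, equally up and down, so that run is no check of the scaling. SE is the log2 fold change divided by the root of F. Ratios to a main copy used a prior count of 0.5 and were compared by exact permutation in Python 3.11.15 with scipy 1.17.1. They were run for paralogs with mean counts above 3 in each genotype, the same 8 that passed the filter. Annotation came from Ensembl BDGP6. Alternatives were limma-voom (limma 3.58.1, the tool the methods name), DESeq2 1.42.0, RLE factors, library totals, scaling to the main copies, no filter, at least 10 counts in every library, genes only, the replicate block, an adjusted p below 0.01 and each library left out. The members, pairs, lists and named genes were chosen with earlier results of these data known. Named were all pair members, the 5 highest and 5 lowest called members, the 3 highest and 3 lowest by RPKM, RpL32, RpS6, sta, RpS2, the fusions and the stalk proteins, and, for other lists, the 2 largest changes in each direction. Promoter and protein sequences were not used here.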

Additional observations from a re-analysis of the deposited data

How the results depend on the processing

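The 74 lower and 1 higher members became 2 and 5 with library totals and 2 and 5 with scaling to the main copies, and between 66 and 77 and always 1 when a library was left out. Of all tested rows 29.3% were lower and 30.1% higher with TMM. These shares were 12.7% and 57.3% with library totals, and 12.5% and 53.3% with scaling to the main copies. The main-copy median of -0.61 became 0.043 and -0.012 under those scalings and lay between -0.69 and -0.50 when a library was left out. The paralog median of -0.50 became 0.15 and 0.11, and was -0.25 with no filter, -0.68 with at least 10 counts in every library, which left RpS19b untested and 0 higher (1 with edgeR, DESeq2 and limma-voom otherwise), and between -0.51 and -0.38 when a library was left out. DESeq2, limma-voom and RLE factors gave 78, 76 and 74 lower. limma-voom used the TMM factors, and DESeq2 factors of the RLE kind. The RLE factors lay near those of TMM, between 0.695 and 0.853 in the control and between 1.21 and 1.29 in EcRi. These runs are therefore no check of the direction.

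Signs turned with library totals for RpL10Ab (0.28), RpL11 (0.23), RpL14 (0.27), RpL22 (0.22), RpL24 (0.13), RpL32 (0.0012), RpL34b (0.0083), RpL37-1 (0.090), RpL38 (0.11), RpL40 (0.21), RpL7 (0.22), RpL9 (0.27), RpLP0 (0.077), RpLP0-like (0.35), RpLP1 (0.045), RpS27A (0.016), RpS5a (0.029), RpS6 (0.28), RpS9 (0.15) and sta (0.15). With scaling to the main copies they turned for RpL10Ab (0.23), RpL11 (0.17), RpL14 (0.22), RpL22 (0.15), RpL24 (0.066), RpL37-1 (0.036), RpL38 (0.052), RpL40 (0.16), RpL7 (0.17), RpL9 (0.21), RpLP0 (0.026), RpLP0-like (0.30), RpS6 (0.23), RpS9 (0.10) and sta (0.091). The scalings differ by construction in what is held constant. Over 638 comparisons of 40 named genes, 513 kept direction and call, 80 lost the call, 10 gained it and 35 turned.

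The difference in share of counts, 0.314 points, became -0.359 without the 10 most abundant genes of each library. It lay between -0.00753 and 0.661 when a library was left out. The log2 ratio change of RpS14a to RpS14b was between -0.034 and 0.0081 (0.0081 without EcRi replicate 3). The replicate numbers did not pair the libraries (correlations -0.057, 0.037 and -0.059), and the replicate block gave 69 lower and 1 higher members and a main-copy median of -0.62. Paralogs with few counts limit precision: RpS19b, RpS5b and RpL22-like rest on at most 143, 75 and 21 counts.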
